A study of Drosophila melanogaster with 30 samples.

Results

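Transposon insertions that are annotated in the Drosophila melanogaster reference genome were followed in RNA from male fly brains. Members were the rows of the deposited count table whose identifier marks a FlyBase insertion (FBti) and whose counts summed over the 30 libraries were 300 or more. They came to 1086 of 5736 insertion rows, or 18.9%, in a table of 24278 rows. The members were thus selected on their measured counts and are the copies with the most RNA in these brains, and 2368 insertion rows had no count in any library. The 3 members just above the limit were Bari2{}4359 with 306 counts, F{}1037 with 302.647 and Rt1b{}71 with 302.251. The 3 rows just below it were G2{}1263 with 299.337, 1360{}4814 with 299 and 1360{}6325 with 298.072.

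The study compared 5 genotypes, each group-housed (GH) and single-housed (SH), with 3 libraries in each of the 10 groups and 30 brains pooled in each library. CS was wild-type Canton-S, and Or47b was w+/Y; Or47b2/3;+/+, which lacks a pheromone receptor of olfactory neurons. Or67d was w+/Y; +/+; Or67dGAL4/GAL4, a mutant of the receptor for the male pheromone cVA. The fru males were w+/Y; +/+; fruLexA/4-40 and the dsx males were w-/Y; +/+; dsxf00683-d07058/f01649-d09625, mutants of the transcription factors fruitless and doublesex of the sex-determination pathway. The age of the flies and the crosses that placed each mutation in its strain were not given in the sources used here. Mutation and strain background therefore cannot be told apart, and all 4 mutants were compared with the same 6 CS libraries.

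Transposons are mobile DNA elements. Retrotransposons move through an RNA copy: LTR retrotransposons carry long terminal repeats like those of retroviruses, LINE-like elements lack them, and HeT-A and TART add themselves to chromosome ends, where they take the place of telomerase in flies. DNA transposons with terminal inverted repeats, such as pogo and 1360, move by cutting and pasting, and INE-1 is an old, abundant Helitron. In germ cells and ovarian follicle cells, piRNAs bound to Piwi proteins hold transposons silent, and in somatic tissues the siRNA pathway of Dcr-2 and AGO2 acts on them as well. Strains of flies carry different insertions, so the copies of the reference genome need not be those of any strain used here.

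The members belonged to 106 families, named from the insertion names. LTR retrotransposons were 556 of the members and held 82.11% of their 12675234 counts. LINE-like elements were 251 members with 7.8% of the counts, telomeric elements 22 with 3.58%, terminal inverted repeat transposons 141 with 3.36% and INE-1 95 with 2.87%. The other members were 20 foldback elements and 1 insertion of no class. A few copies dominated: 42 members held 50% of the counts, the top 10 members held 26.6%, and the top 10 families held 69.1%. Those families were copia, Stalker2, opus, roo, HMS-Beagle, 412, blood, HeT-A, mdg1 and INE-1. Members had a median length of 4719 bases, against 256.5 bases for the other insertion rows. In the annotation of build BDGP6.54, 482 members lay outside any gene, 504 in introns and 100 over exons, and 223 overlapped another annotated insertion.

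Copies of a family share sequence, and their counts are estimates of how shared reads divide among them. Of the members' values, 70.4% were not whole, against 9.8% of the values of FlyBase genes, and 128 members had whole values in all libraries. A value for a single copy therefore carries an error of assignment that the spread between libraries shows only in part, and a 0 is an estimate of the same kind. Family sums do not depend on how reads divide among the members of 1 family. In bulk RNA, fewer cells of a type and less RNA per cell cannot be told apart.

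Library totals ran from 37612941 to 120862312 counts, and the members took 252140 to 914174 counts per library, or 0.535% to 1.28% (median 0.78%). The deposited batch table marked 6 libraries as dissection AC: CS GH 3, CS SH 2, Or47b GH 3, Or47b SH 3, fru GH 3 and fru SH 3. No AC library was in Or67d or dsx, so each fit held dissection as a term. As a check of the labels, the fru row ran from 20.7 to 30.3 CPM in fru libraries and from 151 to 222 elsewhere, and the dsx row from 8.33 to 10.1 in dsx libraries and from 12.4 to 26.4 elsewhere. The Or67d row was at 0 in its mutant and the Or47b row was at or near 0 in every genotype. The white row (w) was at 1.38 to 2.14 CPM in the Or67d libraries, which are labelled w+, against 8.96 to 17.8 in the other w+ libraries and CS, and at 0.162 to 0.479 in dsx.

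The mean summed level of all members was lowest in Or67d. Its libraries overlapped those of CS, Or47b and fru through Or67d SH 2, and all lay below those of dsx. The other genotypes overlapped each other. CPM here are counts scaled to a common library total by TMM, edgeR's correction for composition. The sum was 9460 ± 1490 CPM in CS (SD, n = 6), 9150 ± 2540 in Or47b, 8650 ± 1840 in fru, 8890 ± 371 in dsx and 6060 ± 1110 in Or67d. Or67d was lower than CS by a mean log2 difference of -0.645, with p = 0.015 in a 2-sided exact permutation test within housing and 0.075 after Benjamini-Hochberg adjustment over 5 tests; the smallest p this test can give is 0.005. The adjusted p was 0.025 without TMM scaling and also without Or67d SH 2, where the difference was -0.724. Single-housed and group-housed libraries differed by 0.021 on the log2 scale (exact permutation within genotype, p = 0.833). The AC libraries held 9690 to 13300 CPM and the others 4710 to 11500. Among the 24 libraries that were not AC, the Or67d test gave p = 0.03, where the smallest possible exact p was 0.02.

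**Figure D1:**
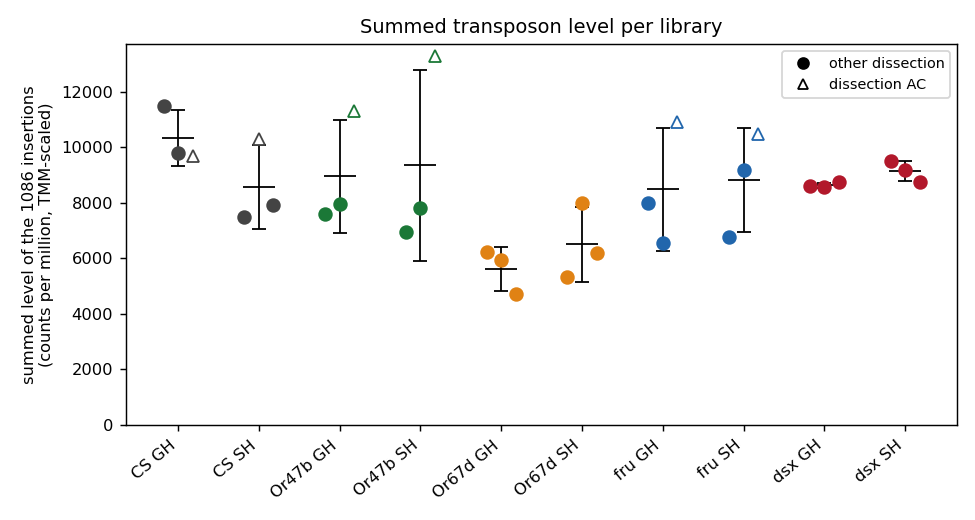
Summed level of the 1086 insertions in CPM (y axis, from 0) for the 3 libraries of each of the 10 groups (x axis); bars give the mean and SD, and open triangles mark dissection AC. The Or67d libraries sit at 4710 to 8000 CPM, and the AC libraries of Or47b and fru are the highest or among the highest of their groups.

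Families were described by the range of their genotype means. Between the genotype with the highest mean CPM and the one with the lowest, 80 of the 106 families differed by more than 2-fold, 46 by more than 4-fold, 15 by more than 10-fold and 2 by more than 100-fold. The median ratio was 3.34 for families and 1.42 for the 11265 gene rows tested beside them; 43.4% of families and 11.3% of gene rows passed 4-fold. These ratios are no test of families against genes, since family sums hold copies that could reach 300 counts through the genotype in which they were high. LTR families had a median ratio of 4.19 and LINE-like families of 2.52. The dsx brains had the highest mean for 33 families, fru for 29, CS for 23, Or47b for 15 and Or67d for 6, while Or67d had the lowest mean for 37. Across the 1086 insertions, which are not independent replicates, each of the 30 libraries was most like another library of its own genotype by Spearman correlation. For only 11 of them was that library from the same housing group. Median correlations between libraries of 1 genotype were 0.976 to 0.992, and between genotypes 0.808 (Or47b and dsx) to 0.903 (CS and Or47b).

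**Figure D2:**
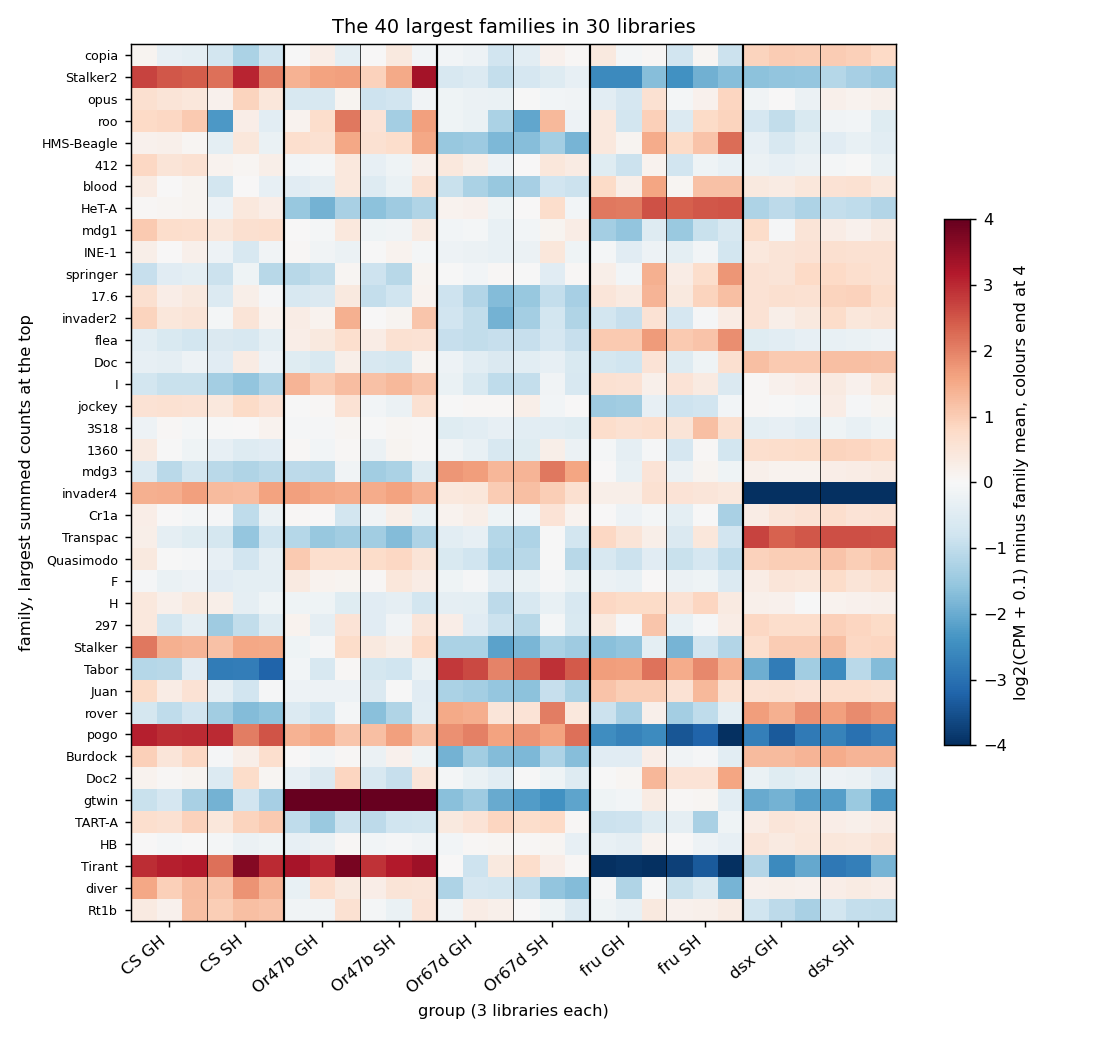
The 40 largest families (rows) in the 30 libraries (columns, 3 per group), coloured by log2(CPM + 0.1) minus the family's mean, with colours ending at 4 either way. The blocks of colour follow genotype rather than housing: gtwin stands out in Or47b, Tabor in Or67d and fru, HeT-A in fru, Transpac and invader4 in dsx.

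Of the 1086 members, 1077 had enough counts to be tested; the 9 others were 7 H copies, diver{}782 and 412{}232. Calls are edgeR quasi-likelihood tests at a Benjamini-Hochberg adjusted p under 0.05 over all rows tested, with a shared spread from all 30 libraries. Log2 changes are adjusted for dissection and so need not equal the ratio of 2 means, and the p-values measure the spread between pools of brains. In Or47b against CS, 92 members were higher and 120 lower, or 19.7%, where 13.6% of all rows were called (6.45% higher, 7.13% lower). In Or67d, 95 were higher and 181 lower, or 25.6%, where 13.1% of all rows were called (6.76% higher, 6.34% lower). In fru, 194 were higher and 244 lower, or 40.7%, against 27.2% of all rows (15.8% higher, 11.4% lower). In dsx, 402 were higher and 191 lower, or 55.1%, against 47.6% of all rows (23.2% higher, 24.5% lower). The median log2 change over members in dsx was 0.516, against -0.011 over all rows; in the other mutants the members' medians were -0.087 (Or47b), -0.199 (Or67d) and -0.038 (fru). Scaling by library totals in place of TMM would move every log2 change in dsx by -0.267, members and other rows alike. Sizes in dsx, and the directions of small changes, are therefore relative to TMM scaling. No called change in dsx, of a member or a family sum, took the other sign without TMM.

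These counts describe the members and lend no support to a difference from other rows, since a member could reach 300 counts through the genotype in which it was high. For 315 members (29.0%) over 50% of the counts came from 1 genotype, and for 174 of these that genotype was dsx. Shares of counts also follow library depth, and the deepest library was dsx GH 1. At the family level, 42 of 106 sums were called in Or47b (12 higher, 30 lower; 39.6%, all rows 13.8%, with 5.7% higher and 8.14% lower) and 54 in Or67d (15 higher, 39 lower; 50.9%, all rows 11.9%, with 5.87% higher and 6.0% lower). In fru 64 were called (30 higher, 34 lower; 60.4%, all rows 28.0%, with 14.2% higher and 13.8% lower) and in dsx 66 (40 higher, 26 lower; 62.3%, all rows 48.8%, with 20.8% higher and 28.0% lower). Members outside genes were called in 24.6% (Or47b), 29.4% (Or67d), 46.6% (fru) and 55.5% (dsx) of cases, and members in introns in 15.6%, 22.4%, 35.1% and 55.3%.

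**Figure D3:**
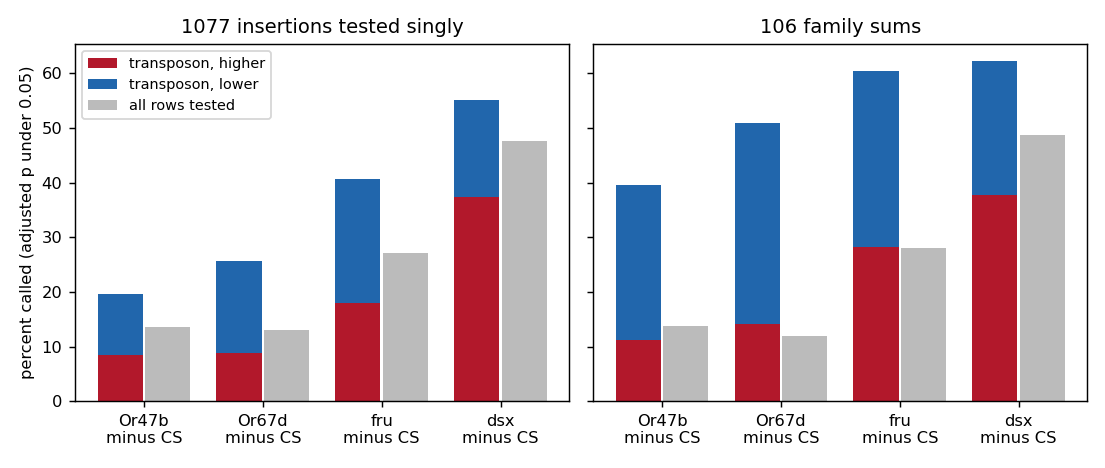
Percent of members called against CS (y axis, adjusted p under 0.05) for each mutant (x axis), as single insertions on the left and family sums on the right; red is higher, blue lower, and grey is the share of all rows tested. Members were called in a larger share than all rows in each mutant, most of them lower in Or67d and higher in dsx.

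Summed marker levels differed from CS in 2 of the mutants. In dsx the summed CPM of 5 fat body markers (Lsp2, Fbp1, Yp1, Yp2 and Yp3) was 797 to 1450, against 62.8 to 611 in CS. Fbp1 stayed at 0.71 CPM or below in every library. The sum of 4 neuronal markers was 6520 to 7020 against 3940 to 5820. For 5 germline markers (vas, nos, bam, Mst87F and dj) the sum was 2.79 to 6.31 against 0.645 to 1.36. Over all libraries vas reached 3.2 CPM and nos 2.51, but Mst87F, dj and bam at most 0.497, 0.316 and 0.223. Such sums do not tell more cells of a type from a change in single marker genes. In fru the sum of 3 haemocyte markers was 57.5 to 137, against 23.8 to 42.7 in CS, and fat body markers reached 3760 in 1 of the SH libraries. The values of 137 and 3760 were from AC libraries, and no library outside AC was above 63.1 for haemocyte markers. The summed photoreceptor markers were at 1070 to 1650 in AC libraries and 634 to 1240 in the others. Each marker had counts in every group except dj in Or67d SH. Their part in the transposon changes was not tested.

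Stalker2, an LTR retrotransposon of the gypsy group, was the leading family of CS brains and was lower in every mutant. The 6 CS libraries held 1760 to 3610 CPM (median 2410). Or67d held 227 to 348 (median 290), dsx 141 to 199 (median 154) and fru 75.3 to 136 (median 99.0), all far below CS without overlap. Or47b held 824 to 4370 (median 1290) and overlapped CS through 1 library, Or47b SH 3, at 4370. Log2 changes with their SE were -2.86 ± 0.219 in Or67d, -3.70 ± 0.226 in dsx, -4.64 ± 0.233 in fru and -0.68 ± 0.202 in Or47b (edgeR adjusted p of 8.13e-10, 9.48e-12, 2.86e-13 and 0.026). Of its 10 tested copies, 9 were lower in Or67d, 10 in fru, 9 in dsx and 4 in Or47b, and none was higher. Of all rows, 6.34% were called lower in Or67d, 11.4% in fru, 24.5% in dsx and 7.13% in Or47b. The copies share reads, so they are not independent of each other.

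Other LTR families also fell in particular mutants. Tirant, an element with an envelope gene like that of gypsy, held 28.6 to 77.9 CPM in CS and 45.8 to 84.8 in Or47b. It held 3.38 to 10 in Or67d, 0.752 to 2.64 in dsx and 0 to 0.507 in fru, so these mutants did not overlap CS. The log2 changes were -2.77 ± 0.253 in Or67d, -5.08 ± 0.291 in dsx and -7.50 ± 0.351 in fru (edgeR adjusted p of 2.04e-08, 2.71e-12 and 8.69e-14). Micropia, another LTR element, held 15.5 to 37.5 CPM in CS and 22.1 to 37.3 in fru, but 0.493 to 1.38 in Or67d (-4.96 ± 0.245, edgeR adjusted p 3.22e-13) and 0.875 to 1.59 in dsx (-4.58 ± 0.236, 4.34e-13). Idefix, a gypsy-like element, held 14.4 to 61.2 CPM in CS, and fell to 1.22 to 2.62 in Or47b (-3.98 ± 0.288, edgeR adjusted p 6.08e-10) and 1.56 to 3.15 in fru (-3.74 ± 0.281, 4.32e-10).

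The LTR family invader4 was at its lowest in dsx. It held 115 to 151 CPM in CS, 129 to 152 in Or47b, 66.0 to 112 in Or67d, 56.8 to 74.2 in fru and 2.06 to 3.00 in dsx. The change in dsx was -5.66 ± 0.135 (edgeR adjusted p 2.28e-19); fru (-1.03 ± 0.107) and Or67d (-0.63 ± 0.11) were lower as well. A single copy carried it: without the largest member, the rest of the family stood at 0.403 in dsx, with an adjusted p of 0.125. That copy, invader4{}1669 (2R:25258153-25258888, plus strand, in no gene), held 111 to 147 CPM in CS and 0 to 0.233 in dsx. It is 736 bases long and, at 113 CPM per kilobase on average over libraries, exceeded copia{}342 at 95.4. The telomeric copy HeT-A{}6532 lies 3609 bases away and fell in dsx too, from 64.0 to 124 CPM in CS to 7.10 to 9.55 (-3.25 ± 0.123, adjusted p 4.3e-15).

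Gypsy6, Burdock and HMS-Beagle, LTR families, fell in Or67d. Gypsy6 held 1.09 to 2.42 CPM in CS and 0.0371 to 0.117 in Or67d, a log2 change of -4.32 ± 0.23 (edgeR adjusted p 1.11e-12) on few counts. Burdock held 20.6 to 41.4 CPM in CS, 5.58 to 8.87 in Or67d (-2.16 ± 0.149, edgeR adjusted p 1.39e-10) and 50.7 to 59.9 in dsx (0.82 ± 0.141, 6.31e-05). The Or67d call for Burdock was lost without the members that overlap a gene (-1.16, adjusted p 0.229). HMS-Beagle held 102 to 145 CPM in Or67d and 284 to 510 in CS (-1.40 ± 0.143, edgeR adjusted p 1.39e-07). It held 564 to 1090 in Or47b (0.87 ± 0.139) and 402 to 1750 in fru (0.97 ± 0.139), where the highest libraries were the AC ones; without HMS-Beagle{}333, fru stood at 0.101 (adjusted p 0.67).

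Among the LTR families that rose, gtwin, an errantivirus-like relative of gypsy, rose most in Or47b. Its CPM in Or47b were 98.6, 109 and 258 in GH and 86.7, 82.8 and 204 in SH, where 258 and 204 were the AC libraries. The other 24 libraries held 0.553 to 4.29. The log2 change from CS was 6.39 ± 0.229 (edgeR adjusted p 1e-15), and fru was higher than CS as well, at 2.52 to 4.29 CPM (1.13 ± 0.225, 0.000537). The largest copy, gtwin{}1686 (2L:20176783-20191109), held 54.5 to 190 CPM in Or47b and was listed at 0 in the 24 other libraries. With a floor of 3 counts over the 6 CS libraries, its estimate was at least 9450-fold higher in Or47b. That bound covers counting error only, not how reads divide among copies. The copy was singled out after its values were seen. A second copy, gtwin{}6523 (X:21836372-21843782), held 24.2 to 71.8 CPM in Or47b and 0.0672 to 0.868 in CS.

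**Figure D4:**
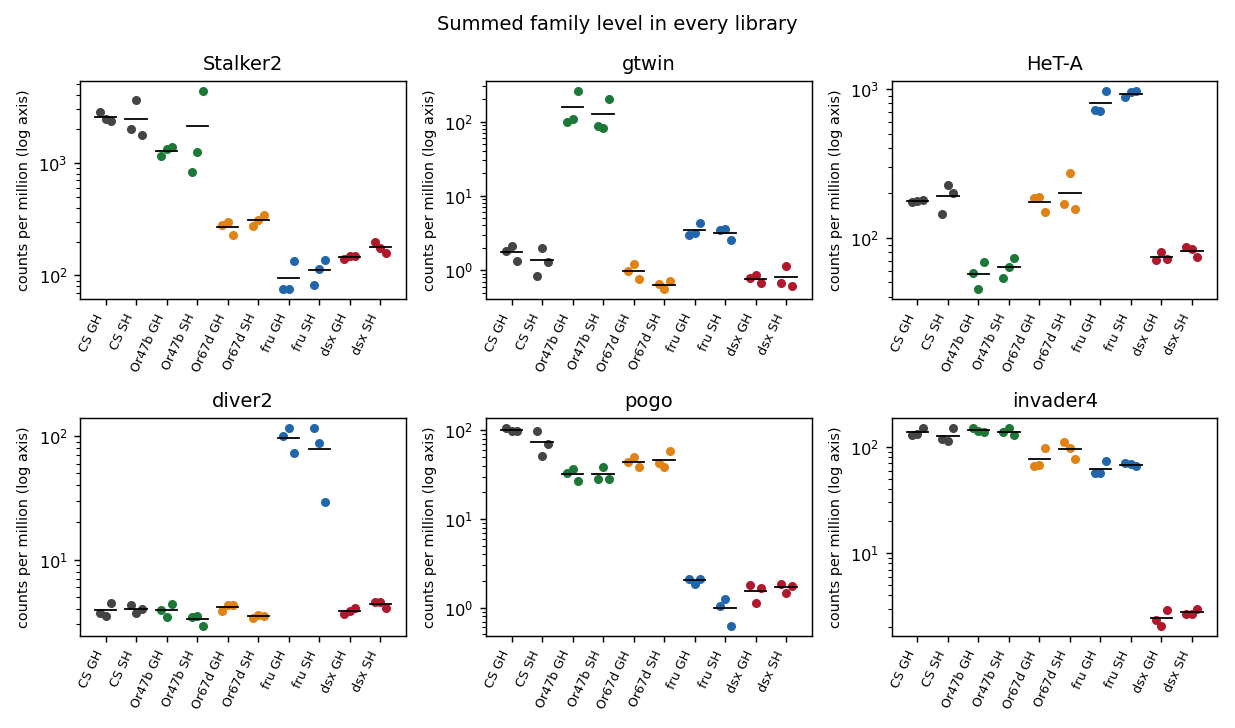
Summed CPM (log axis) of 6 families in every library of the 10 groups (x axis); points are libraries and lines are group means. The Or47b libraries lie above all others for gtwin, the fru libraries for HeT-A and diver2; invader4 is low in dsx, and pogo in fru and dsx.

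Tabor, also a gypsy-group LTR element, held 2.04 to 14.2 CPM in CS, 78.6 to 150 in Or67d and 51.4 to 89.1 in fru. The changes were 4.60 ± 0.254 in Or67d and 3.67 ± 0.238 in fru (edgeR adjusted p 1.99e-12 and 2.69e-11), and dsx, at 2.72 to 9.26 CPM, overlapped CS. Its copies Tabor{}6591 (X:21806657-21813997) and Tabor{}77 (X:7023656-7030988, in an intron of CG12541) both rose in Or67d, by 5.22 ± 0.276 and 5.29 ± 0.335. The host gene CG12541 stood at 0.00 ± 0.0809 (edgeR adjusted p 0.998).

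Mdg3 held 31.1 to 48.5 CPM in CS and 177 to 306 in Or67d (2.72 ± 0.161, edgeR adjusted p 8.11e-12). It was higher in dsx (78.3 to 91.2, 1.30 ± 0.155) and fru (57.9 to 105, 0.94 ± 0.15) too. Single copies varied between libraries of 1 group: mdg3{}119, picked after its values were seen, was at 0, 167 and 10.4 CPM in the 3 Or67d SH libraries. Rover held 7.31 to 14.9 CPM in CS, 32.9 to 101 in Or67d (2.61 ± 0.26, edgeR adjusted p 9.02e-08) and 64.6 to 90.3 in dsx (3.09 ± 0.264, 3.2e-09). Its Y-chromosome copy rover{}6574 (Y:478056-485215, in an intron of kl-3, a dynein gene of sperm) held 14.0 to 45.1 CPM in Or67d, 30.2 to 47.7 in dsx and 0.466 to 1.18 in CS. McClintock was called higher in Or67d, at 24.4 to 51.1 against 7.42 to 15.6 in CS (1.82 ± 0.202, edgeR adjusted p 4.75e-07), and lower in fru (-1.25 ± 0.202) and dsx (-1.31 ± 0.208).

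Flea held 72.4 to 93.1 CPM in CS, 147 to 194 in Or47b (1.02 ± 0.107, edgeR adjusted p 2.85e-07) and 251 to 445 in fru (1.88 ± 0.11, 4.68e-12). One copy, flea{}877 (2R:23402664-23407682, plus strand, in no gene), was nearly silent in CS at 0 to 0.925 CPM and held 90.4 to 113 in Or47b and 89.0 to 115 in fru. Its levels in Or67d (1.64 to 4.31) and dsx (1.35 to 6.79) lay between. The changes were 7.81 ± 0.416 in Or47b and 7.84 ± 0.416 in fru (edgeR adjusted p 4.35e-12 and 1.72e-12). Diver2 stood out in fru, at 99.6, 117 and 72.3 CPM in GH and 117, 87.6 and 29.2 in SH, against 2.91 to 4.56 in the 24 other libraries (4.40 ± 0.199, edgeR adjusted p 4.19e-14). The rise rested on diver2{}1632 (2R:5048677-5060606): without it the family stood at -0.203 (adjusted p 0.446). The 2 lowest fru libraries, at 72.3 and 29.2, were the AC ones.

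Springer, a gypsy-like element, held 90.4 to 174 CPM in CS, 282 to 343 in dsx (1.63 ± 0.132, edgeR adjusted p 1.37e-09), 183 to 673 in fru (1.37 ± 0.128, 1.76e-08) and 145 to 204 in Or67d (0.89 ± 0.13, 2.38e-05). In fru the AC libraries were the highest, at 528 and 673. Springer{}300 (2L:3251549-3259058) rose in fru to 63.5 to 231 CPM and in dsx to 52.2 to 64.3, from 1.78 to 6.02 in CS. Transpac held 11.5 to 39.6 CPM in CS and 174 to 219 in dsx, a change of 3.02 ± 0.215 (edgeR adjusted p 1.28e-10). That call was lost without the members that overlap a gene (1.705, adjusted p 0.16). Its copy Transpac{}362 lies in an intron of B4 and was singled out after its values were seen; it averaged 130 CPM in dsx and was at 0 in the 6 Or67d libraries.

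Among the remaining large LTR families, copia rose in dsx, from 604 to 1590 CPM in CS to 2550 to 2970 (1.38 ± 0.149, edgeR adjusted p 1.39e-07). Its changes in Or47b (0.59 ± 0.141, adjusted p 0.00607) and fru (0.39 ± 0.14, 0.0404) were smaller. The Or47b call was lost among libraries that were not AC (adjusted p 0.0586) and without the largest member (0.213, adjusted p 0.455). The fru call was lost with no dissection term, among libraries that were not AC, with no count filter, with the replicate block, and on leaving out any of 8 libraries (CS GH 2 and 3, CS SH 1 to 3, fru GH 1 and 3, fru SH 2), with adjusted p up to 0.204; without fru SH 2 the change was 0.248. Blood was higher in fru (300 to 853 CPM) and dsx (359 to 434) than in CS (171 to 356), by 0.96 ± 0.171 and 0.76 ± 0.175, and lower in Or67d (-0.80 ± 0.175). The dsx call for blood was lost without the dissection term and in sums with the transposon rows outside FBti (edgeR adjusted p up to 0.0673).

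Opus was lower in Or47b (472 to 891 CPM against 935 to 1530 in CS, -1.03 ± 0.113, edgeR adjusted p 6.05e-07) and in Or67d (690 to 823, -0.49 ± 0.115, 0.00499). Its changes in fru (-0.45 ± 0.113) and dsx (-0.29 ± 0.115) did not hold under all settings; the dsx call was lost with DESeq2 and on leaving out any of 8 libraries (CS GH 1 and 2, CS SH 3, dsx GH 1 and 3, dsx SH 1 to 3). Mdg1 fell in fru (73.2 to 151 CPM against 296 to 449 in CS, -1.77 ± 0.143, edgeR adjusted p 1.49e-09), in Or47b (-0.66 ± 0.139) and in Or67d (-0.62 ± 0.142); the Or47b value was -0.131 without its largest member, and the Or67d call was lost without members that overlap a gene (adjusted p 0.0868). The family 412 was lower in fru (-0.78 ± 0.131) and dsx (-0.50 ± 0.134), where the dsx call was lost without the largest member (-0.308, adjusted p 0.0563). Roo was not called in any mutant (edgeR adjusted p of 0.373 to 0.945), and its CPM spread from 90.4 to 933 within CS and from 174 to 1910 within Or47b. One copy, roo{}339 (2L:10946999-10956155, in an intron of dpr2 on the opposite strand), held 55.9% of roo counts in dsx and up to 85.8% in Or47b.

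The telomeric families differed in direction between mutants and among themselves. HeT-A held 145 to 226 CPM in CS and 148 to 274 in Or67d, which overlapped. In fru it held 711 to 970, and it was lower in Or47b, at 45 to 73.1, and in dsx, at 71.2 to 86.6. The log2 changes were 2.23 ± 0.119 in fru, -1.61 ± 0.118 in Or47b and -1.14 ± 0.12 in dsx (edgeR adjusted p 8.72e-13, 6.56e-10 and 9.79e-08). Over all 22 telomeric members, 16 were higher and 2 lower in fru, 3 higher and 10 lower in Or47b, 5 higher and 3 lower in Or67d, and 7 higher and 6 lower in dsx. The shares called were 81.8%, 59.1%, 36.4% and 59.1%, where 27.2%, 13.6%, 13.1% and 47.6% of all rows were called. The median log2 change of these 22 was 2.12 in fru and -0.76 in Or47b.

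Much of the HeT-A counts in fru was assigned to a single reference copy near the end of chromosome 4. Whether the RNA came from that site was not tested. HeT-A{}6268 (4:1301834-1307750, minus strand) held 336 to 505 CPM in the 6 fru libraries and 3.61 to 11.4 in the 24 others (5.64 ± 0.177 against CS, edgeR adjusted p 1.58e-16). Without it the family was still higher in fru, by 1.322 (adjusted p 6.92e-09). HeT-A{}5504 (X:114047-116407), whose values were whole in every library, held 0.0837 to 0.184 CPM in CS, 52.6 to 78.0 in fru, 7.98 to 14.0 in Or67d and 5.07 to 12 in dsx. Its changes were 8.91 ± 0.219, 6.51 ± 0.222 and 6.14 ± 0.223 (edgeR adjusted p 2.56e-18, 9.9e-16 and 2.2e-15). HeT-A{}6276 (4:1282540-1288109) fell instead in Or47b, from 32.7 to 44.5 CPM in CS to 2.92 to 4.93 (-3.28 ± 0.178), and in dsx, to 6.75 to 9.12 (-2.26 ± 0.171).

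TART-C had 1 member, TART-C{}6275 (4:1288110-1289098), which directly adjoins HeT-A{}6276 and had whole values in all libraries. It held 7.08 to 10.8 CPM in CS, 10.9 to 18.9 in fru and 7.29 to 9.30 in dsx, but 0.102 to 0.311 in Or47b and 0.190 to 0.479 in Or67d. The family changes were -5.45 ± 0.192 and -4.52 ± 0.18 (edgeR adjusted p 9.12e-16 and 4.61e-15), and fru was higher by 0.71 ± 0.138 (0.000396). TART-A, with 3 members, held 30.1 to 45.2 CPM in CS, 7.79 to 13.1 in Or47b (-1.76 ± 0.144, edgeR adjusted p 4.57e-09) and 8.89 to 19.5 in fru (-1.42 ± 0.141, 4.13e-08). Without its largest member, the Or47b change was -0.927 (adjusted p 0.144). In fru, HeT-A and TART-C were thus higher and TART-A lower.

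Of the LINE-like elements, the I element is known for the hybrid dysgenesis that follows crosses between strains with and without active copies. It held 32.1 to 58.8 CPM in CS, 196 to 251 in Or47b, 64.4 to 147 in fru, 101 to 132 in dsx and 48.1 to 88.2 in Or67d. All 6 libraries of Or47b lay above those of every other genotype, with a change of 2.32 ± 0.146 (edgeR adjusted p 3.66e-11). This call was lost without the members that overlap a gene (0.294, adjusted p 0.199). The changes in fru (1.42 ± 0.143), dsx (1.27 ± 0.149) and Or67d (0.45 ± 0.147, adjusted p 0.0471) were smaller. Doc3 was higher in Or47b, at 9.25 to 11.3 CPM against 5.54 to 7.47 in CS (0.71 ± 0.0736, edgeR adjusted p 2.54e-07), but without its largest member it stood at -0.229.

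Doc rose in dsx, to 206 to 232 CPM from 73.2 to 125 in CS (1.59 ± 0.112, edgeR adjusted p 1.03e-10), and 47 of its 55 tested copies were higher there. In the other mutants the Doc family was not called (adjusted p of 0.337 to 0.928). Doc{}130 (X:14778097-14782817) held 17.0 to 19.7 CPM in dsx, 2.20 to 3.71 in Or47b and 0.192 to 0.531 in CS. Jockey fell in fru, to 37.7 to 95.3 CPM from 137 to 174 (-1.40 ± 0.103, edgeR adjusted p 3.05e-10). Juan fell in Or67d, to 10.3 to 16.9 CPM from 19.0 to 54.7 (-1.48 ± 0.135, edgeR adjusted p 1.92e-08). Over all 251 LINE-like members tested, 118 were higher and 37 lower in dsx, or 61.8%, with a median log2 change of 0.80 (all rows 47.6%, with 23.2% higher and 24.5% lower). F{}1367 (3R:15162609-15167303, in an intron of Gyc88E) rose in Or47b to 2.69 to 8.57 CPM from 0.325 to 1.07 (3.63 ± 0.265, edgeR adjusted p 1.12e-09), while Gyc88E itself stood at -0.14 ± 0.0747 (0.22).

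Among DNA transposons, pogo separated fru and dsx from the rest. It held 107, 97.7 and 98.2 CPM in CS GH and 98.1, 51.7 and 70.8 in CS SH. Or47b held 26.9 to 38.7 and Or67d 38.4 to 57.9, while fru held 0.623 to 2.12 and dsx 1.13 to 1.85. The changes were -5.93 ± 0.159 in fru and -5.82 ± 0.157 in dsx (edgeR adjusted p 1.56e-18 and 1.46e-18), and -1.43 ± 0.122 in Or47b and -1.02 ± 0.126 in Or67d. INE-1, the Helitron with 95 members, was higher in dsx (309 to 359 CPM against 147 to 269, 0.58 ± 0.109, edgeR adjusted p 0.00017) and was not called in the other mutants. In dsx 38 INE-1 copies were higher and 5 lower, or 45.3% (all rows 47.6%). INE-1{}3643 (3R:4268510-4269121) went its own way in fru, at 0.324 to 0.501 CPM against 8.03 to 11 in CS (-4.51 ± 0.183, edgeR adjusted p 1.53e-14). All 13 called foldback members of 20 tested were higher in dsx (65%; all rows 47.6%).

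Copies of 1 family did not always move together. Among the 55 families with 5 or more tested members, copies were called in both directions in 22 families in Or47b, 24 in Or67d, 33 in fru and 35 in dsx. The shares of all rows called in either direction were 13.6%, 13.1%, 27.2% and 47.6%. At such shares a family with many copies can hold both directions, so these counts are a description. Some families moved largely 1 way: in dsx 47 Doc copies were higher and 1 lower, and in fru all 10 Stalker2 copies were lower. In copia the copies differed: copia{}298 led the family in CS, and copia{}342 led it in all 4 mutants. Copia{}342 (2L:11563692-11568837, minus strand, in no gene) held 15.2 to 58.6 CPM in CS, 220 to 549 in Or47b, 310 to 675 in Or67d, 466 to 945 in fru and 732 to 996 in dsx. Its log2 changes were 3.14 ± 0.245, 3.39 ± 0.258, 3.80 ± 0.251 and 4.09 ± 0.265 (edgeR adjusted p of 2.9e-09 or lower). It gave 4.67% ± 2.1 (SD, n = 6) of copia counts in CS and 49.0% ± 8.03 in fru. Without it, the copia sum in fru was lower than in CS, by -0.483 (adjusted p 0.0462).

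Copia{}910 (3L:2108306-2113451, in an intron of sls) went the other way: 98.5 to 230 CPM in CS and 98.6 to 201 in Or47b, but 2.19 to 27.3 in Or67d and 2.00 to 6.44 in fru. Copia{}298 (2L:3073087-3078231, in an intron of toc on the opposite strand) led the family in CS with 21.7% ± 4.33 and gave 2.78% ± 1.24 in Or67d, where it fell by 2.93 ± 0.321 on the log2 scale (edgeR adjusted p 4.85e-07). Copia{}131 (X:14818820-14823965, in an intron of rut) held 409 to 718 CPM in dsx and 9.57 to 59.2 in CS (5.27 ± 0.748, edgeR adjusted p 7.59e-06).

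**Figure D5:**
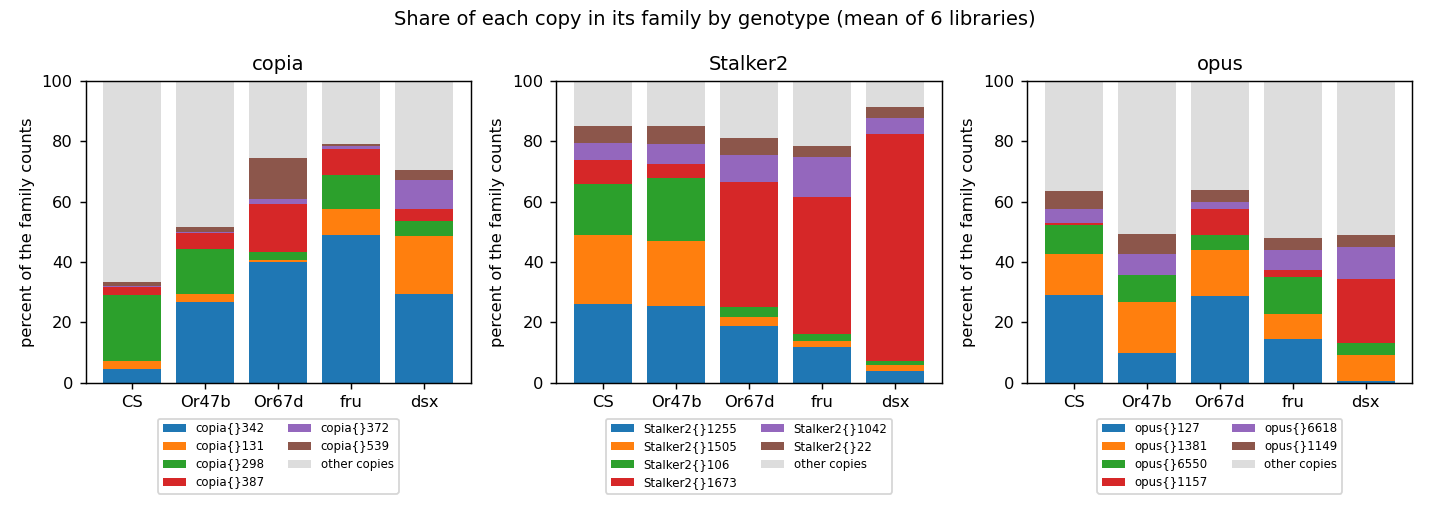
Share of family counts (y axis, percent, mean of 6 libraries) that each of the leading copies gave in the 5 genotypes (x axis), for copia, Stalker2 and opus; grey is the sum of the other copies. Copia{}342 grows from 4.67% in CS to 49.0% in fru, Stalker2{}1673 from 8.11% in CS to 75.1% in dsx, and opus{}127 shrinks from 29.1% to 0.532% in dsx.

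Stalker2 kept its drop in nearly all copies, but not evenly. Stalker2{}1505 (4:320044-328162, over an exon of Rnf11 on the same strand) held 391 to 863 CPM in CS, 5.14 to 13.4 in Or67d, 2.43 to 3.83 in dsx and 0.518 to 3.59 in fru (-8.22 ± 0.405, edgeR adjusted p 5.25e-13). Rnf11 fell by 1.25 ± 0.186 in fru as well (edgeR adjusted p 1.79e-05); reads from the insertion and from that exon cannot be told apart where both share them. Stalker2{}1255 (3R:7729521-7737401) and Stalker2{}106 (X:11312119-11319407) fell to 4.16 to 9.96 and 1.33 to 5.55 CPM in dsx, from 479 to 1010 and 236 to 684 in CS. Stalker2{}1673 held its level best, and its share rose from 8.11% ± 1.27 in CS to 41.5% ± 5.27 in Or67d, 45.4% ± 8.81 in fru and 75.1% ± 3.92 in dsx.

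In opus, 2 copies traded places in dsx while the family sum moved by only -0.29. Opus{}127 (X:14551699-14559302) fell from 276 to 491 CPM in CS to 2.08 to 11.5 in dsx (-6.10 ± 0.287, edgeR adjusted p 2.2e-13). Opus{}1157 (3L:23371788-23378382, which overlaps another insertion) rose from 2.48 to 10.1 CPM to 138 to 224 (4.35 ± 0.227, 1.38e-12), and fell in Or47b to 0 to 0.372 (-6.50 ± 0.364). In mdg1, the copy mdg1{}CG42335[iso-1] (3R:21761177-21768511, over an exon of CG42335 on the opposite strand) held 114 to 140 CPM in CS, 65.1 to 98.0 in Or67d, 12 to 22.8 in Or47b, 5.27 to 10.7 in dsx and 0.075 to 0.877 in fru. Every genotype was below the one before it in that order, and the 6 libraries of neighbouring genotypes did not overlap. Micropia{}1243 (3R:7349764-7355234) held 12.1 to 31.8 CPM in CS, 0.495 to 0.904 in Or67d and 0.709 to 1.46 in dsx.

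Some insertions were at 0 in all 6 libraries of a genotype: 31 members in CS (2.85%), 33 in Or47b (3.04%), 43 in Or67d (3.96%), 34 in fru (3.13%) and 31 in dsx (2.85%). A member could enter for several genotypes, as gtwin{}1686 did for CS, Or67d, fru and dsx. The share among other rows was not computed, so these counts are a description of the members only. Juan{}1190 (3R:4408473-4412704, in an intron of CG32944) was at 0 in Or67d and held 5.20 to 27.3 CPM in the 24 other libraries. INE-1{}3227 (3L:23036067-23036402, in an intron of nrm, whole values) was at 0 in Or67d and held 2.09 to 7.09 CPM elsewhere. A count of 0 over these 6 libraries allows up to 0.00986 CPM, counting error only. The genes around them did not pass the test in Or67d: CG32944 stood at -0.10 ± 0.0509 and nrm at -0.14 ± 0.112 (edgeR adjusted p 0.242 and 0.532).

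Another such insertion lies over flamenco (lncRNA:flam), the piRNA cluster on the X chromosome that restrains gypsy-like elements in ovarian follicle cells. Springer{}2141 (X:21723964-21731592, on the strand opposite to flam) was at 0 in the 6 Or47b libraries and held 10.4 to 36.9 CPM in CS, 16.4 to 31.0 in Or67d, 58.5 to 105 in dsx and 53.2 to 186 in fru. By the floor of 3 counts over the Or47b libraries, the estimate in fru was at least 8980-fold higher than in Or47b. This bound covers counting error only, not how reads divide among copies. The flam row itself stood at -0.07 ± 0.227 in Or47b (edgeR adjusted p 0.89). In all, 14 members overlapped flam, 10 of them on the opposite strand. The largest in CS were Stalker2{}1637, with a mean of 99.1 CPM in CS and 5.98 in fru, and blood{}2438, with 25.4 and 0.776; the latter overlaps springer{}2141. The copies gtwin{}6523 and Tabor{}6591, described above, lie on the same arm, 104779 and 75064 bases from springer{}2141.

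The genes around called members were looked up beside them. Of members called in fru and lying on the same strand as a gene, 88 lay over a tested gene. Of these members, 22 lay over a called gene, and for 12 a called gene went the same way as the insertion. Members were counted, so a gene with several insertions could enter more than once. The counts were 58, 8 and 6 in Or67d, 42, 6 and 6 in Or47b, and 170, 128 and 89 in dsx. For members on the opposite strand they were 100, 27 and 16 in fru, 64, 8 and 5 in Or67d, 40, 6 and 5 in Or47b, and 129, 81 and 49 in dsx. Of all rows, 27.2% were called in fru, 13.1% in Or67d, 13.6% in Or47b and 47.6% in dsx. Some of the reads over an intronic insertion can come from the gene's unspliced RNA, and their share was not tested.

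Some members had all 6 libraries of 1 genotype above or below the 24 others. These counts are a description, since a copy high in 1 genotype could reach 300 counts through it, and 1 dsx library (GH 1) was the deepest of all. In dsx 141 of 1077 tested members lay above (13.1%; all rows 6.46%) and 15 below (all rows 5.14%). In fru 44 lay above (all rows 1.56%) and 10 below (0.51%), and in Or47b 16 above (0.448%) and 10 below (0.322%). In Or67d 15 lay above (0.73%) and 21 below (0.675%), and in CS 13 above (0.204%) and 6 below (0.188%). By family, all 6 libraries were above all others for gtwin, I and Doc3 in Or47b (2.83%; all rows of that fit 0.387%) and for BS3 and mdg3 in Or67d (1.89%; 0.633%). The same held for diver2, Y, HeT-A, TART-C, flea and 3S18 in fru (5.66%; 1.23%) and for diver and GATE in CS (1.89%; 0.158%). In dsx it held for 12 families, among them Transpac, Burdock, Doc and copia (11.3%; 5.98%).

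Few insertions were called for housing. In CS, 12 members were called and all were lower in SH (1.11%; all rows 1.46%, with 0.942% higher and 0.518% lower). The median log2 change over members in CS was -0.363 (all rows 0.017), and 165 members passed an unadjusted p of 0.05. The CS count depended on the settings: DESeq2 called 69, the fit with no dissection term 4, and leaving out 1 library gave 2 (without CS SH 2) to 21 (without Or67d SH 2). No member was called in Or47b, fru or dsx, where 39, 106 and 29 passed an unadjusted p of 0.05 in edgeR and DESeq2 called 8, 10 and 3; all rows gave 0.173% in Or47b (0.0314% higher, 0.141% lower), 0.0942% in fru (0.0628% higher, 0.0314% lower) and 0.0157% in dsx. In Or67d 2 members were called (0.186%; all rows 0.0393%, with 0.0157% higher and 0.0236% lower), averaged over genotypes 3 (0.279%; all rows 1.08%, with 0.503% higher and 0.573% lower), and for a housing effect that differed among genotypes 1 (0.0929%; all rows 0.118%). No family passed when housing was averaged over genotypes, where 15 passed an unadjusted p of 0.05 and 1.26% of all rows were called. At the family level, 0.211% of all rows were called in Or47b (0.044% higher, 0.167% lower).

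In CS, 2 of 106 families were lower in SH (1.89%; all rows 1.86%, with 0.941% higher and 0.923% lower). Tabor was at 8.88, 9.09 and 14.2 CPM in GH and 2.77, 2.81 and 2.04 in SH (-2.06 ± 0.344, edgeR adjusted p 0.00242), and Juan at 54.7, 39.7 and 48.5 in GH and 25.1, 19.0 and 31.5 in SH (-0.94 ± 0.181, 0.00651). Both calls were lost without the AC libraries and without the members that overlap a gene, with Tabor then at -0.351, and that of Juan also without CS SH 2. In the 4 mutants the GH and SH libraries overlapped for both families; Tabor in Or47b, for example, was at 18.3, 12.6 and 20.4 in GH and 12.1, 11.4 and 16.2 in SH.

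Among the insertions called in CS, 2 that are named here were listed at 0 in all SH libraries. I{}1078 (3L:21365893-21371264) was at 3.10, 1.04 and 1.87 CPM in GH, and Tabor{}6615 (2R:2162603-2169956, in an intron of CG17684) at 5.66, 5.80 and 10.7. The fitted changes of copies at 0 have no size to report; the edgeR adjusted p were 0.00179 and 0.0054. The other pair moved by less: 1360{}1539 (4:907917-908992, over exons of CR43361 and unc-13) was at 9.74, 9.49 and 7.01 in GH and 4.61, 4.01 and 4.99 in SH (-0.94 ± 0.19, 0.0102). Cr1a{}6093 (4:455789-459194) was at 2.36, 2.03 and 1.81 in GH and 1.28, 0.727 and 1.32 in SH (-0.94 ± 0.195, 0.0137). Of the genes over 1360{}1539, CR43361 was called lower in SH as well, at -0.34 ± 0.0853 (edgeR adjusted p 0.0481). The other, unc-13, stood at -0.28 ± 0.123 (0.235). Reads from this insertion and from those exons cannot be told apart where both share them. The call for Tabor{}6615 was lost without CS SH 2 and without the AC libraries, and that for 1360{}1539 without CS GH 1 or CS SH 2. That for Cr1a{}6093 was lost without CS GH 1, CS GH 3 or CS SH 2, without the AC libraries and with no dissection term; adjusted p rose to 0.12, 0.0892 and 0.248.

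In Or67d, Burdock{}1221 (3R:5446016-5452418, in an intron of CG14669) was at 0.879, 1.95 and 0.337 CPM in GH and at 0 in the 3 SH libraries (edgeR adjusted p 0.000657), and copia{}910 was higher in SH, at 12.8, 12.4 and 27.3 against 3.15, 7.10 and 2.19 (2.08 ± 0.382, 0.0466). The copia{}910 call was lost on leaving out Or67d GH 1 or 3 or Or67d SH 1 or 3. It was also lost with the replicate block and with no dissection term (edgeR adjusted p up to 0.388 over these settings). In dsx the values of copia{}910 were also higher in SH, at 50.5, 51.5 and 37.3 against 25.8, 25.2 and 33.5, a difference that was not called. Averaged over genotypes, jockey{}901 (3L:939838-940886, in an intron of Glut1) was higher in SH by 1.60 ± 0.364 (edgeR adjusted p 0.03), but 14 of 30 single libraries each decided that call when left out. The 2 other members called in this average, Burdock{}1221 and I{}1078, were lower in SH. The I{}1078 call was lost among libraries that were not AC (edgeR adjusted p 0.149).

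Genes that silence transposons were read from lists for 3 roles. Of 25 tested genes of the piRNA pathway, 15 were higher and 2 lower in dsx (median log2 change 0.74, all rows -0.01), 5 and 4 in fru, 4 and 2 in Or47b, and 2 and 1 in Or67d. Of all rows, 47.6% were called in dsx, 27.2% in fru, 13.6% in Or47b and 13.1% in Or67d. Levels were low: piwi, the nuclear Argonaute of the pathway, was at 0.442 to 0.921 CPM in CS, 2.23 to 3.38 in dsx, 1.24 to 2.61 in fru and 1.27 to 1.87 in Or67d. Its log2 changes were 1.90 ± 0.22, 1.58 ± 0.21 and 1.09 ± 0.218 (edgeR adjusted p 5.27e-07, 4.16e-06 and 0.00101). SoYb, a Tudor-domain factor, fell from 4.02 to 5.72 CPM in CS to 0.502 to 0.904 in Or47b (-2.85 ± 0.169, 2.62e-11) and to 0.949 to 1.55 in fru (-2.04 ± 0.163, 1.89e-09). SoYb was also called lower in dsx (-1.34 ± 0.163, edgeR adjusted p 1.08e-06) and Or67d (-0.75 ± 0.162, 0.00227). Aub, a cytoplasmic Argonaute of the same pathway, rose in Or67d, from 1.18 to 2.13 CPM to 4.34 to 6.17 (1.55 ± 0.15, edgeR adjusted p 7.77e-08). The gene vret rose in dsx (1.38 ± 0.167) and del in Or47b (0.72 ± 0.109). The summed germline markers were higher in dsx as given above, and vas is also in the piRNA list. Their part in these counts was not tested.

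Of 6 siRNA genes, 3 were higher and 1 lower in dsx, 1 was higher in fru, 2 were lower in Or67d and none was called in Or47b. Dcr-2, which cuts double-stranded RNA, rose by 0.24 ± 0.0493 in dsx, and AGO2, which carries siRNAs, by 0.22 ± 0.0419 in fru (edgeR adjusted p 0.000469 and 0.000441). The double-stranded RNA-binding protein gene blanks rose in dsx, from 0.0626 to 0.293 CPM in CS to 0.895 to 1.83 (2.75 ± 0.331), and fell in Or67d (-1.63 ± 0.383). Hen1, which methylates the ends of small RNAs, fell in Or67d (-0.50 ± 0.1). Of 10 heterochromatin genes, 2 were lower in Or47b (ADD1 -0.25 ± 0.0649, sov -0.27 ± 0.0881), 2 in fru (ADD1 -0.20 ± 0.0648, wde -0.20 ± 0.0711) and 1 higher in dsx (Lam 0.23 ± 0.0633). The siRNA and heterochromatin counts stand beside the same shares of all rows, 47.6% in dsx, 27.2% in fru, 13.6% in Or47b and 13.1% in Or67d. None of the 3 lists had a called gene for housing averaged over genotypes; the tests were edgeR with adjustment over all rows.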

How the data were processed

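RNA from pooled male brains was sequenced in 30 libraries, with poly(A) selection and a stranded kit per the labels' protocols. The submitters' processing notes name STAR, Salmon, DESeq2 and the build BDGP6, with no versions. The deposited table holds estimated counts per row, as the authors made them, and these were rounded for the tests. A deposited normalized table keyed by gene symbol was not used. Transposon sequences were not analysed here.

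Families were read from insertion names and classes from general knowledge; positions come from Ensembl's annotation of BDGP6.54. The members and gene lists were chosen with earlier results of these data known. Counts were tested with edgeR 4.0.16 in R 4.3.3: TMM scaling, rows kept by filterByExpr over 10 groups, 1 mean per group plus a dissection term, the quasi-likelihood F test, and Benjamini-Hochberg adjustment over 12733 rows, or over 11371 in a second fit in which 106 family sums replaced the insertions. SE is the log2 change over the square root of F. Named families and insertions were the 10 largest by counts and, for each comparison, up to 4 called in each direction with the smallest adjusted p (for insertions against CS, with 6 libraries all above or below those of CS), with up to 2 called genes per silencing list and comparison; others are marked as picked after their values were seen. Intervals and floors (3 counts) cover counting error only. The procedure was tested on simulated counts. Alternatives were DESeq2 1.42.0, other scaling, no count filter, no dissection term, libraries that were not AC, a replicate block, other family sums, and each library left out.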

Additional observations from a re-analysis of the deposited data

Results flagged for a closer look

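The housing effect on Burdock{}1221 differed among genotypes by a joint interaction test (edgeR adjusted p 0.0101). The copy was at 0.879, 1.95 and 0.337 CPM in Or67d GH and at 0 in Or67d SH, and at 17.6, 11.8 and 17.6 in CS GH and 10.4, 11.7 and 16.6 in CS SH. The call was lost among libraries that were not AC (adjusted p 0.0714) and without Or67d SH 3 (0.0652).

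The count table also holds 140 rows that are named as transposons but carry no FBti identifier, and these lie outside the members. They held 1022374 counts over the 30 libraries, or 8.07% of the members' counts, and 17549 to 116910 counts per library.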

How the results depend on the processing

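Counts of called members and families against CS stayed within 1.5 times under each setting run. Leaving out 1 library gave 177 to 217 members in Or47b, 239 to 289 in Or67d, 396 to 451 in fru and 542 to 605 in dsx. Housing counts were small and moved more. With DESeq2 they were 69 in CS, 8 in Or47b, 21 in Or67d, 10 in fru, 3 in dsx, 19 averaged over genotypes and 19 for the interaction. Without the dissection term, CS gave 4 and Or67d 1. The replicate block gave 1 in Or67d. For the interaction, no count filter gave 2 and libraries that were not AC gave 0. Leaving out 1 library gave 2 to 21 in CS, 0 to 1 in Or47b, 1 to 2 in Or67d, 0 to 7 in fru, 2 to 7 averaged and 0 to 5 for the interaction. Families averaged over genotypes came to 1 without members that overlap a gene and 0 to 1 on leaving out a library. Without TMM factors the summed level differed from CS by -0.646 in Or67d and -0.341 in dsx on the log2 scale, and leaving out 1 library gave -0.724 to -0.575 in Or67d. Without their largest member, 5 family values changed sign: copia in fru (-0.483), opus in dsx (0.195), Doc3 in Or47b (-0.229), diver2 in fru (-0.203) and invader4 in dsx (0.403). Without members that overlap a gene, mdg1 in Or47b stood at 0.103. The causes were not tested beyond what these settings remove. Replicate numbers did not pair the libraries (correlations of same-numbered deviations from -0.175 to 0.434). With the replicate as a block, 197, 258, 437 and 583 members were called in Or47b, Or67d, fru and dsx.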
